A study of Mus musculus with 16 samples.

Results

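The transcripts of G protein-coupled receptors, of the G proteins they switch on and of the regulators that switch those proteins off were followed in mouse lung after exposure to an allergen. Members were chosen by gene symbol alone: receptors named Gpr with a number, Adgr, P2r, Ptger, Adra, Adrb, Ador, Cyslt, Ltb4r, Chrm, Hrh and Fpr, G protein subunits named Gna, Gnb and Gng, and the Rgs regulators. Of 171 such genes on the platform, 90 could be paired with their values, out of 9866 genes paired in all. The name rule also took in genes that are no such receptor or subunit: the P2rx genes encode ATP-gated ion channels, Gnasas1 is an antisense RNA, and Gnb1l is a relative of the beta subunits. The 16 arrays formed 4 groups of 4: mice titled BALB/c, given either the allergen ovalbumin (OVA, from egg white) or phosphate-buffered saline (PBS), and mice titled BALB-RAG, exposed to OVA or to PBS. The whole lung was taken on day 22, in a model of experimental asthma, a single day after exposure ended. The labels give no age, no allele behind the name RAG and no statement that replicates were separate animals, and p-values then reflect only how much these samples vary, which may be technical variation.

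A G protein-coupled receptor spans the membrane and, when its ligand binds, makes an alpha subunit of a G protein exchange GDP for GTP and part from its beta and gamma subunits. Alpha subunits of the Gs class raise cyclic AMP, those of the Gi class lower it, and those of the Gq class activate phospholipase C; RGS proteins speed the hydrolysis of GTP by Gi and Gq subunits and so end the signal. In the lung these receptors read histamine, acetylcholine, leukotrienes, prostaglandins, adrenaline and nucleotides, which set the tone of airway muscle and the traffic of leukocytes, and several are targets of asthma drugs.

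The arrays were alike in scale, with median intensities of 18.2 to 20.5 on the linear scale. Log2 4, taken here as background, was exceeded by 52.1 to 53.5% of probe sets on an array. A gene was tested where it exceeded log2 4 on at least 4 arrays, which 7276 genes and 49 of the 90 members did. The number of arrays limits the precision. Alveolar epithelial markers read a mean of log2 11.25 to 11.66 over the 16 arrays. Mice without a working Rag gene lack mature T and B cells, but lymphocyte transcripts were found on some arrays with the BALB-RAG title. The mean of 10 T cell genes was 4.49 to 4.87 on the arrays labelled BALB-RAG PBS, against 4.5 to 4.85 in BALB/c PBS, and plasma cell genes read 7.47 to 8.66 and 7.30 to 8.39. B cell genes were lower on the arrays labelled BALB-RAG PBS, 4.65 to 5.19 against 5.61 to 5.90, without overlap. Among the arrays labelled BALB-RAG OVA the T cell list read 5.53 on replicate 2 and 3.59 to 3.75 on the others, and the plasma cell list read 9.16 on replicate 2 and 5.62 to 5.77 on the others. Groups were kept as titled; the counts of members past the threshold without that array are given with each comparison that uses it. In whole lung, fewer cells of a type and less RNA per cell cannot be told apart.

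Receptors of several ligands could not be tested: none of the 3 paired histamine, 2 adrenergic and 1 muscarinic receptors passed the filter, while 3 of 9 purinergic, 1 of 2 prostaglandin E, 1 of 3 leukotriene and 1 of 3 formyl peptide receptors did. Of 41 members that were not tested, 29 were under log2 4 on all 16 arrays and 12 exceeded it on 1 to 3 arrays. Among the former were Chrm3, the muscarinic receptor of airway muscle, whose highest value was 2.85, Hrh1 and Hrh4, histamine receptors, at 2.92 and 2.24, Ptger3, a prostaglandin E receptor, at 2.85, and Cysltr2, a leukotriene receptor, at 2.49. The histamine receptor Hrh2 exceeded log2 4 on 1 array, the adrenergic receptor Adra1b on 1, the leukotriene B4 receptor Ltb4r1 on 2 and the regulator Rgs16 on 2. No adenosine receptor was among the paired genes. Gnas, the Gs alpha subunit, is used by cells throughout the body, yet both of its paired probe sets stayed below log2 4, with a highest value of 3.92. A value under background does not show that a transcript was absent.

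OVA was compared with PBS in BALB/c to ask how these transcripts respond to the allergen. After OVA, receptors for nucleotides and for prostaglandin E2 rose together with 3 RGS regulators, while 3 G protein alpha subunits, 2 adhesion receptors and Rgs9 fell. The largest rises were Rgs1, 12.6-fold, P2ry6, 5.27-fold, Rgs10, 2.80-fold, and Ptger4, 2.80-fold. The largest fall was Gnao1, fitted as 2.39-fold with 3 of its OVA arrays under background. In all, 8 of the 49 tested members rose and 6 fell at an adjusted p under 0.05, which is 28.6% of them, against 15.5% of all tested genes. Gpr34, among the 8, was tested only because the OVA group was high. Rises took in 8.73% and falls 6.78% of all tested genes. The median log2 difference was 0.02 over the members and 0.00 over all tested genes. For 14 members the OVA and PBS arrays did not overlap, against 19.6% of all tested genes. Deviations of samples with the same replicate number correlated in BALB/c, but samples with unlike numbers were not compared. With the replicate number as a block 20 members passed the threshold, when 24.2% of all tested genes did.

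**Figure D1:**
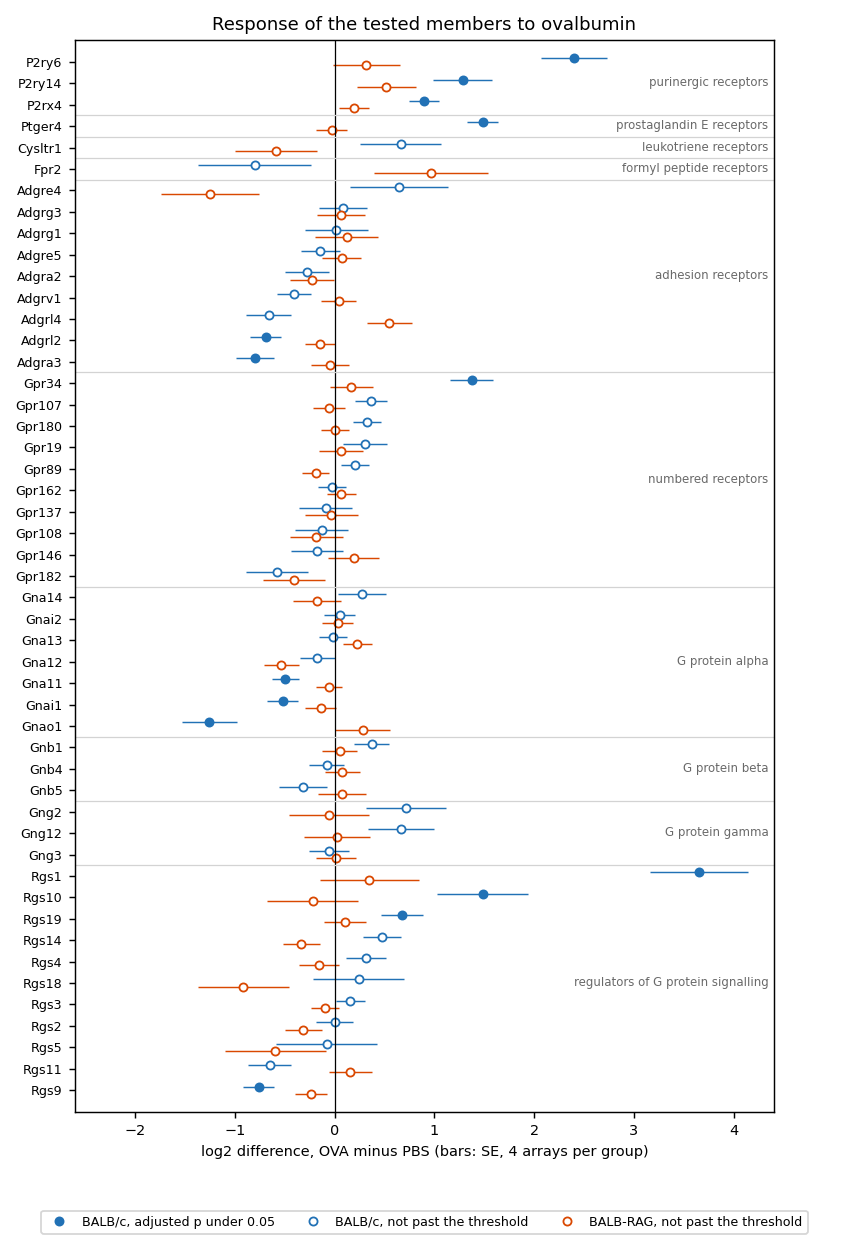
Log2 difference between OVA and PBS (x axis) for each of the 49 tested members, grouped by class; blue is BALB/c, orange is BALB-RAG, bars are the SE from the limma fit with 4 arrays per group, and filled points have an adjusted p under 0.05. The 14 filled points are all BALB/c, from Gnao1 at -1.26 to Rgs1 at 3.65; no BALB-RAG point is filled.

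All 3 tested purinergic receptors rose in BALB/c. P2ry6, a receptor for UDP, read log2 6.64, 6.90, 6.68 and 5.46 on PBS replicates 1 to 4 and 9.06, 9.27, 8.58 and 8.38 on the OVA replicates. Every OVA array lay above every PBS array. The rise was 2.40 ± 0.33 on the log2 scale (SE, n = 4 per group, adjusted p = 0.000169, limma). P2ry14, a receptor for UDP-glucose, had PBS values of 6.29, 5.97, 5.84 and 6.31 and OVA values of 7.96, 8.06, 6.94 and 6.58. The groups did not overlap, but replicates 1 and 2 moved more than replicates 3 and 4, with differences of 1.88 and 0.68; the whole difference was 1.28 ± 0.29 (adjusted p = 0.00701, limma). P2rx4, an ATP-gated cation channel, went from 8.29 to 8.59 after PBS to 8.92 to 9.53 after OVA, a rise of 0.89 ± 0.15 (adjusted p = 0.000837, limma). The other 6 paired purinergic genes were not tested; P2ry10b exceeded log2 4 on 3 arrays and P2rx3 on 1, and P2rx2, P2rx7, P2ry1 and P2ry4 on none.

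Ptger4, the EP4 receptor through which prostaglandin E2 raises cyclic AMP, had the lowest adjusted p of all members. It read 6.63, 6.70, 6.47 and 7.01 after PBS and 8.14, 8.08, 8.46 and 8.07 after OVA, so the groups lay well apart. The rise was 1.48 ± 0.16 (SE, n = 4 per group, adjusted p = 1.47e-05, limma), and it was 1.44 within replicates 1 and 2 and 1.53 within replicates 3 and 4. A second Ptger4 probe set, near background with 4 arrays over log2 4, differed by 0.49 in the same direction. Cysltr1, the receptor for leukotriene D4 that montelukast blocks, read 5.19, 5.17, 3.78 and 4.52 after PBS and 5.73, 5.77, 5.78 and 4.03 after OVA. Those groups overlapped through OVA replicate 4, and the difference of 0.66 ± 0.41 did not pass (adjusted p = 0.336, limma). Fpr2, a formyl peptide receptor of neutrophils and macrophages, read 7.70, 8.06, 6.48 and 6.23 after PBS and 6.67, 4.30, 7.0 and 7.30 after OVA. These groups overlapped throughout (-0.80 ± 0.57, adjusted p = 0.415, limma), with replicate 2 of the OVA group far below its group.

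Among 10 tested receptors with a Gpr number, Gpr34 passed the threshold without the replicate block, and with it Gpr107 did too. Gpr34, which binds lysophosphatidylserine and is carried by microglia and other myeloid cells, was under log2 4 on all 4 PBS arrays (3.44 to 3.69) and read 5.17, 5.07, 5.37 and 4.25 after OVA. Against background at log2 4, it was at least 1.95-fold higher after OVA (log2 difference as measured 1.37 ± 0.22, adjusted p = 0.000466, limma). It exceeded background on 5 arrays, 4 of them of this OVA group, so it was tested only because that group was high. The other 9 differed by between -0.58 (Gpr182, an endothelial receptor) and 0.36 (Gpr107, adjusted p = 0.147, and 0.0250 with the replicate block, limma). Of 9 tested adhesion receptors, which carry long extracellular parts that bind other cells or matrix, 2 fell and none rose past the threshold. Adgra3 read 8.41, 8.36, 8.88 and 9.15 after PBS and 7.69, 7.77, 7.94 and 8.21 after OVA, a fall of 0.80 ± 0.19 on the log2 scale (adjusted p = 0.0105, limma). Adgrl2, a latrophilin, read 9.43 to 9.69 after PBS and 8.64, 8.73, 8.68 and 9.22 after OVA, with a difference of -0.69 ± 0.15 (adjusted p = 0.00558, limma). Neither pair of groups overlapped. Adgrl4, a receptor of endothelial cells, came close: 9.58 to 10.19 after PBS and 8.70 to 9.65 after OVA overlapped slightly (-0.66 ± 0.22, adjusted p = 0.0591, and 0.00540 with the replicate block, limma). Within replicates 1 and 2 Adgra3 fell by 0.65 and Adgrl2 fell by 0.77, and within replicates 3 and 4 Adgra3 fell by 0.94 and Adgrl2 fell by 0.61.

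At the level of the G proteins, 3 of 7 tested alpha subunits fell after OVA in BALB/c and none rose. Gnao1, the Go subunit that is most abundant in brain and heart, read 4.30, 4.98, 5.51 and 5.43 after PBS and 3.92, 3.73, 4.25 and 3.29 after OVA. These groups did not overlap, and 3 of the OVA arrays lay under background, so the fitted fall of 1.26 ± 0.27 on the log2 scale rests partly on values without a measured level (adjusted p = 0.00518, limma). Gnai1, a Gi subunit, read 7.49 to 7.70 after PBS and 7.07, 7.05, 6.88 and 7.42 after OVA (-0.52 ± 0.16, adjusted p = 0.0330, limma). Gna11, of the Gq class, was tightly grouped after PBS at 7.91 to 7.95 and read 7.55, 7.52, 7.56 and 7.14 after OVA (-0.49 ± 0.13, adjusted p = 0.0193, limma). These last falls were small, and the Gna11 call was lost without OVA replicate 4 and the Gnai1 call without any one of 6 BALB/c arrays (PBS replicates 2, 3 and 4 and OVA replicates 1, 2 and 3), with adjusted p-values up to 0.133 and 0.300 over all alternatives. Gnai2, the main Gi subunit of leukocytes, was level at 10.26 to 10.49 after PBS and 10.22 to 10.55 after OVA (0.05 ± 0.15, adjusted p = 0.890, limma). None of 3 tested beta and 3 tested gamma subunits passed. Gng2 and Gng12 had the largest differences of these, 0.71 ± 0.40 and 0.67 ± 0.33, with adjusted p-values of 0.274 and 0.211 (limma) that became 0.00416 and 0.0499 with the replicate block. For Gng2 a second probe set with a mean of 5.50 differed by -0.26, so its direction is not settled by these arrays.

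Regulators of G protein signalling held the largest change of all members. Rgs1, which ends Gi signals of chemokine receptors in lymphocytes, read 5.14, 4.15, 4.18 and 3.58 on the PBS arrays and 8.90, 8.78, 7.75 and 6.22 on the OVA arrays. All OVA arrays were above all PBS arrays, OVA replicate 4 the least, 1 PBS array was under background, and the rise was 3.65 ± 0.49 (SE, n = 4 per group, adjusted p = 0.000139, limma). Rgs1 is one of a row of RGS genes: in the RefSeq annotation the order of protein-coding genes runs Rgs2, Rgs13, Rgs1, Rgs21, Rgs18. Its tested neighbours did not move with it, with differences of 0.00 ± 0.18 for Rgs2 and 0.24 ± 0.46 for Rgs18. Rgs10 read 7.22, 7.26, 6.13 and 5.74 after PBS and 8.68, 8.62, 7.66 and 7.34 after OVA. Replicates 1 and 2 were higher than replicates 3 and 4 in both groups, and the rise was alike in each set, 1.41 and 1.56; over all arrays it was 1.49 ± 0.46 (adjusted p = 0.0371, limma). Its call was lost when OVA replicate 1 or 2 or PBS replicate 3 or 4 was left out, with adjusted p-values up to 0.125 over all alternatives. Rgs19 read 7.92, 8.26, 7.43 and 7.58 after PBS and 8.64, 8.75, 7.99 and 8.51 after OVA. Those groups overlapped, and the rise of 0.68 ± 0.21 (adjusted p = 0.0424, limma) was not past the threshold under 14 alternatives, 10 of which left out a single array, with adjusted p-values up to 0.135. A second Rgs19 probe set was 1.04 higher. Rgs14, a regulator that also binds Gi subunits, differed by 0.48 ± 0.19 (adjusted p = 0.106, and 0.0364 with the replicate block, limma). Rgs9, of the class that pairs with the beta subunit Gnb5, fell from 6.41 to 6.70 after PBS to 5.96, 5.45, 5.70 and 6.03 after OVA (-0.76 ± 0.16, adjusted p = 0.00373, limma). Rgs11, of the same class, went from 5.58 to 6.42 to 5.19 to 5.57 and just missed the threshold (-0.65 ± 0.21, adjusted p = 0.0506, and 0.0238 with the replicate block, limma), and Gnb5 itself differed by -0.32 ± 0.24 (adjusted p = 0.459, limma).

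**Figure D2:**
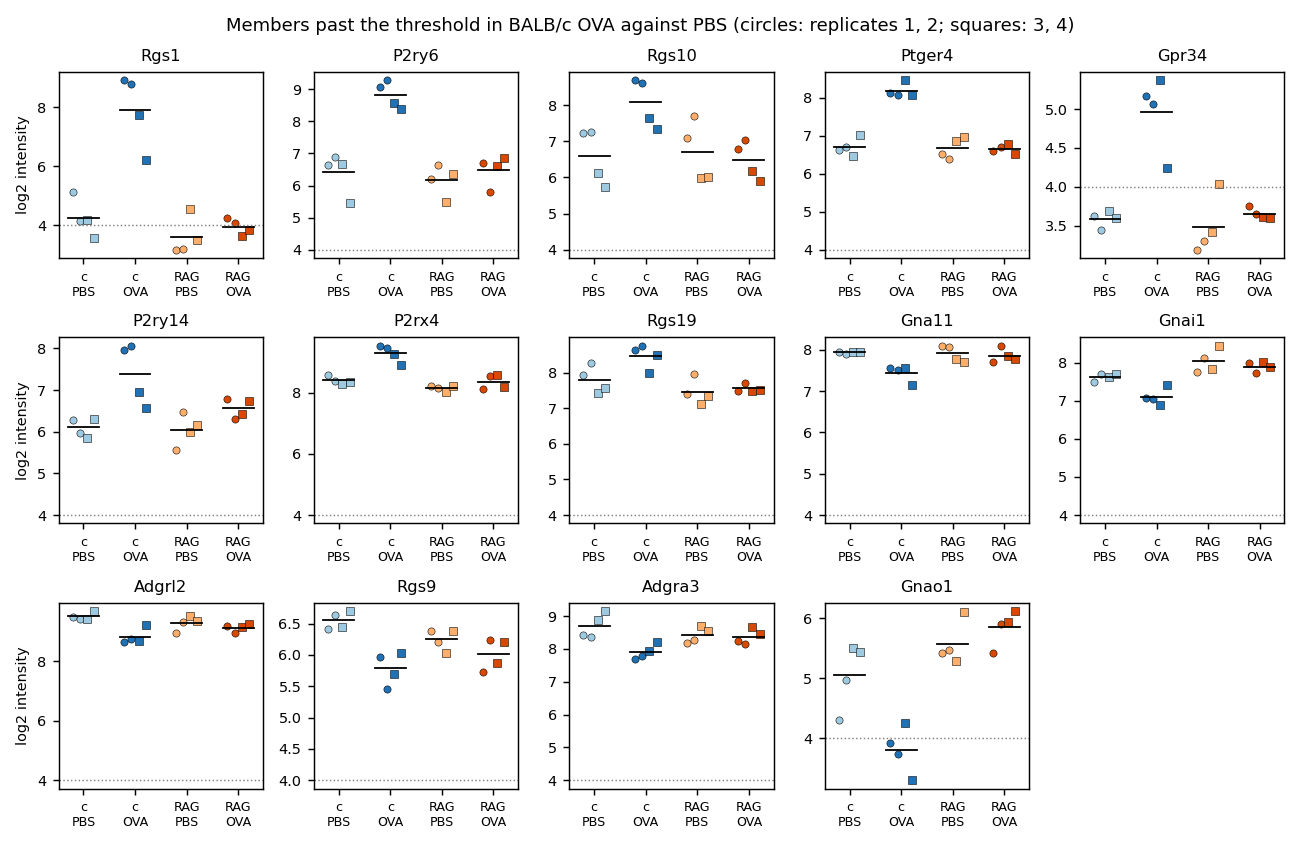
Log2 intensity (y axis, with its own range per gene) on each of the 16 arrays for the 14 members past the threshold in BALB/c; c is BALB/c, RAG is BALB-RAG, lines are group means, circles are replicates 1 and 2, squares are replicates 3 and 4, and the dotted line is background at log2 4. The OVA and PBS groups of BALB/c do not overlap except for Rgs19, and Gpr34 lies under log2 4 on all BALB/c PBS arrays.

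Start regions of members that rose and fell are shown to let their sequences be compared. They are the 250 bases before the start of each gene in RefSeq (GRCm38.p6), on the gene's strand, for the 2 largest rises and 2 largest falls whose gene has such an entry. Capitals mark the GC box, GGGCGG, on either strand.
Rgs10, chr7:128418173-128418422, minus strand: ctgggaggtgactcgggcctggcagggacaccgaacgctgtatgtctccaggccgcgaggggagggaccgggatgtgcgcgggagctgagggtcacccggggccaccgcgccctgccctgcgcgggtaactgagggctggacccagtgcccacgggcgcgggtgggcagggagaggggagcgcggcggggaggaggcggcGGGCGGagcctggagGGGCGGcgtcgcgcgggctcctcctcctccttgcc
Ptger4, chr15:5244188-5244437, minus strand: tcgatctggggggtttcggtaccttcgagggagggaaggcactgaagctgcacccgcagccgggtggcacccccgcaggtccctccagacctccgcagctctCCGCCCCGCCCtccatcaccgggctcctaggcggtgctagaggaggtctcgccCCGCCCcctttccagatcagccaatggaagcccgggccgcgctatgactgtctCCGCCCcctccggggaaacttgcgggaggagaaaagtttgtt
Gnao1, chr8:93810588-93810837, plus strand: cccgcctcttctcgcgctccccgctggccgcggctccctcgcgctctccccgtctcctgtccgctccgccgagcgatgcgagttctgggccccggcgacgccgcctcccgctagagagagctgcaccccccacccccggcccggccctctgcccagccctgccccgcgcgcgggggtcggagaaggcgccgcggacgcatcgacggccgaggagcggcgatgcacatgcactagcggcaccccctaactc
Adgra3, chr5:50058997-50059246, minus strand: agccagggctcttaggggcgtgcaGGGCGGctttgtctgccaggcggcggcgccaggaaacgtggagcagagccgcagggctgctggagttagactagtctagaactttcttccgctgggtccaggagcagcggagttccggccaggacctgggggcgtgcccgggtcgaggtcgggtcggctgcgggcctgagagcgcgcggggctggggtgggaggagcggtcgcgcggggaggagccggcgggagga
Counted from the start, the GC box began at -50 and -35 in Rgs10, at -148, -143, -95 and -42 in Ptger4, where the first pair shares a base, and at -226 in Adgra3; these letters were not in the Gnao1 window. Members past the threshold can have several such windows: 5 that rose had 10, of which 4 held a GC box, and 6 that fell had 6, of which 4 held it, against 32.7% of all 32851 windows of this length. The cyclic AMP response element TGACGTCA, held by 1.55% of all windows, and the STAT6 site (TTC and GAA with any 4 bases between), held by 5.85%, were in none of these windows on either strand. The AP-1 site TGACTCA, held by 4.46%, was in 1 window, among the 4 of P2ry14. A match describes letters in a window and is no evidence of binding.

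Genes up and down the same pathways were read from a list of enzymes, kinases and other receptors, of which 57 of 111 were tested. In BALB/c 4 rose and 14 fell after OVA, where 8.73% and 6.78% of all tested genes did, with a median log2 difference of -0.13. The 2 largest rises were receptors: C3ar1, the receptor for the complement fragment C3a, under background on all 4 PBS arrays and at least 14.4-fold higher after OVA (adjusted p = 1.25e-05, limma), and Ptgir, the prostacyclin receptor, which rose by 2.15 ± 0.28 (adjusted p = 0.000111, limma). Arrb2, an arrestin that uncouples receptors, rose by 1.21 ± 0.24, and Adcy7, an adenylyl cyclase of blood cells, by 0.79 ± 0.19. Of 6 tested adenylyl cyclases, which make cyclic AMP, Adcy9 (-0.92 ± 0.13), Adcy4 (-0.75 ± 0.16) and Adcy8 (-1.23 ± 0.34) fell, and of 7 phosphodiesterases, which break it down, Pde4d (-0.98 ± 0.12) and Pde8b (-0.79 ± 0.16) fell. S1pr1, the endothelial receptor for sphingosine 1-phosphate, fell by 1.24 ± 0.18 on the log2 scale. None of 4 tested subunits of protein kinase A passed the threshold.

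Several lists of cell type markers also moved after OVA in BALB/c. Macrophage genes read a mean of 7.53 to 8.05 after PBS and 9.18 to 10.11 after OVA, with 6 of 7 genes past the threshold upwards. T cell genes read 4.5 to 4.85 and 5.39 to 6.62 (7 of 10 up), dendritic cell genes 4.90 to 5.09 and 5.45 to 6.49 (3 of 5 up), and genes of proliferating cells 4.76 to 5.50 and 7.24 to 8.16 (3 of 3 up). Plasma cell genes read 7.30 to 8.39 and 9.30 to 10.83 (4 of 6 up), and club and goblet cell genes 6.63 to 7.75 and 10.17 to 10.76 (3 of 4 up, 1 down). Of 7 B cell genes, 1 rose. None of 5 neutrophil genes passed. The same held for 2 eosinophil, 3 NK cell and 1 mast cell and basophil genes, and the eosinophil genes Ccr3 and Prg2 were not tested. It also held for 7 smooth muscle and pericyte, 4 ciliated cell and 6 alveolar epithelial genes. Endothelial genes fell from 9.42 to 9.60 to 8.72 to 9.26, with 3 of 9 past the threshold. Genes of cardiac and skeletal muscle read 6.68 to 8.92 after PBS and 5.81 to 6.44 after OVA (1 of 7 down), and 1 of 2 adipose genes fell. The part of these cells in the members' changes was not tested.

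**Figure D3:**
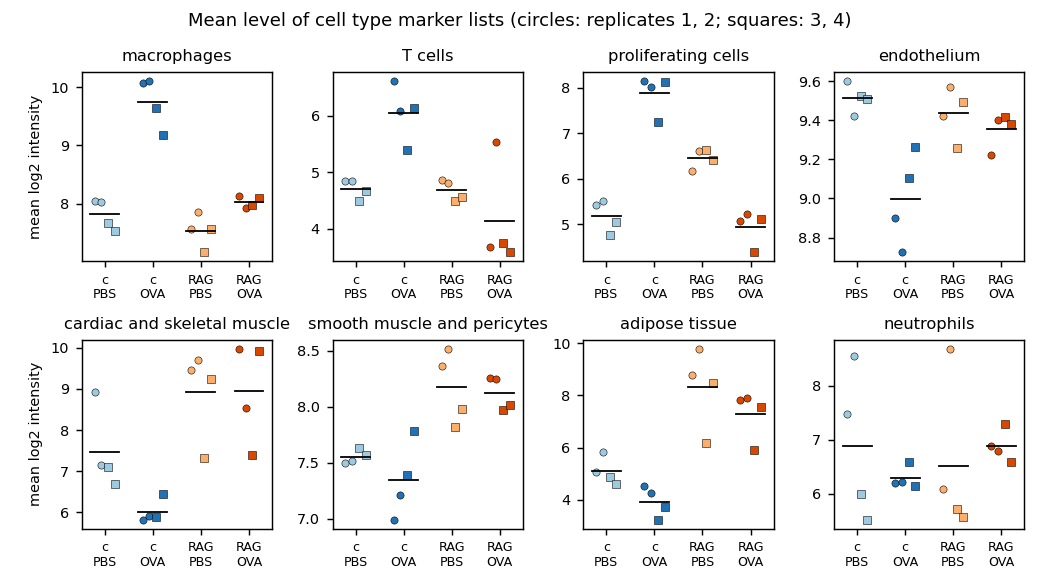
Mean log2 intensity (y axis, with its own range per list) of the tested genes of 8 cell type marker lists on each array, with the same groups, symbols and lines as in the plot of members. The group means of the macrophage, T cell and proliferation lists are highest in BALB/c after OVA, that of the endothelial list is lowest there, and the T cell list reads 5.53 on 1 BALB-RAG OVA array.

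The same exposure on the arrays labelled BALB-RAG moved no member past the threshold. Over all tested genes 0.165% passed (12 genes), and by unadjusted p under 0.05 there were 562 genes and 3 members, Adgre4, Adgrl4 and Gna12 (limma). The lowest adjusted p of a member was 0.340, for Gna12, of the G12 class, which read 5.95 to 6.28 after PBS and 5.83, 5.0, 5.59 and 5.89 after OVA without overlap (-0.53 ± 0.18, limma). It was the only member whose groups did not overlap, against 4.62% of all tested genes. Rgs1, largest in BALB/c, read 3.17, 3.21, 4.53 and 3.50 after PBS and 4.24, 4.09, 3.65 and 3.83 after OVA (0.35 ± 0.49). Ptger4 read 6.38 to 6.97 and 6.53 to 6.79, a difference of -0.03 ± 0.16. P2ry6 read 5.48 to 6.65 and 5.79 to 6.84 (0.32 ± 0.33), P2ry14 differed by 0.52 ± 0.29 and P2rx4 by 0.20 ± 0.15. Cysltr1 differed by -0.59 ± 0.41 and Fpr2 by 0.97 ± 0.57. Without BALB-RAG OVA replicate 2, 0 members passed as well. None of the 57 pathway genes passed. Marker lists differed between these PBS and OVA arrays. Genes of proliferating cells read 6.16 to 6.63 and 4.38 to 5.22 (1 of 3 lower after OVA). Plasma cell genes read 7.47 to 8.66 after PBS and 5.62 to 5.77 after OVA, except 9.16 on OVA replicate 2. Macrophage genes went the other way, 7.17 to 7.86 and 7.93 to 8.14, with 0 past the threshold. The part of these cells in the members' values was not tested.

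Whether the responses of the lines differ was tested directly, as the OVA response in BALB/c minus that in BALB-RAG. The BALB-RAG part uses the PBS and OVA arrays with the unlike marker lists given above. This test passed for 6 members (12.2% of those tested, against 8.49% of all tested genes), 4 with a higher and 2 with a lower response in BALB/c, where 4.63% and 3.86% of all tested genes did. The difference was 3.30 ± 0.70 for Rgs1 (adjusted p = 0.00803, limma), 2.08 ± 0.47 for P2ry6 (0.0124), 1.51 ± 0.22 for Ptger4 (0.000552) and 1.21 ± 0.31 for Gpr34 (0.0228). Rgs1 was under background on 3 BALB-RAG PBS and 2 BALB-RAG OVA arrays, so its size rests partly on values without a measured level. Gpr34 was tested only because BALB/c OVA was high: in the other groups 4, 3 and 4 arrays were under background, so its size is not a measured difference of levels. For Gnao1 the difference of responses was -1.54 ± 0.39 (0.0221), with 3 BALB/c OVA arrays under background. For Adgrl4 it was -1.21 ± 0.32 (0.0274), from -0.66 in BALB/c and 0.55 on the arrays labelled BALB-RAG, neither past the threshold by itself. A second Adgrl4 probe set gave -0.82 and 0.67. Rgs10, P2rx4 and Rgs19 rose in BALB/c, but the differences of their responses did not pass (adjusted p = 0.124, 0.0556 and 0.300, limma). With the replicate block 12 members passed, when 15.8% of all tested genes did, those 3 among them (adjusted p = 0.000196, 0.0337 and 0.0472, limma), with Rgs14, Adgra3 and Gng2 (0.0227, 0.00705 and 0.0271). The block fits the same shift per number in all 4 groups, while same-numbered BALB-RAG OVA and PBS arrays correlated at only 0.0253 to 0.478. A second Gng2 probe set went the other way, with -0.26 in BALB/c and 0.00 on the arrays labelled BALB-RAG. Over all alternatives the adjusted p reached 0.280 for Gpr34, lost without BALB/c OVA replicate 1 or 2, 0.137 for Gnao1, lost without BALB-RAG OVA replicate 4 or BALB/c PBS replicate 4, and 0.241 for Adgrl4, lost without any of 8 single arrays. It reached 0.251 for P2ry6 and 0.0693 for Rgs1, both lost with replicates 3 and 4 alone. Without BALB-RAG OVA replicate 2 the count was 6 again, and without BALB/c OVA replicate 4 it was 10. P2ry14, Adgrl2, Rgs9, Gnai1 and Gna11 passed in BALB/c and had no difference of responses past the threshold in either fit. Among pathway genes 3 had a higher response in BALB/c, Ptgir (2.37 ± 0.40), Adcy7 (1.15 ± 0.26) and C3ar1, which has no measured size since 4 BALB/c PBS arrays and 2 in each BALB-RAG group were under background, and 9 a lower one, with Adcy9 (-1.13 ± 0.18), S1pr1 (-1.59 ± 0.26) and Pde4d (-0.96 ± 0.16) at the lowest p.

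After PBS, the lines were compared without allergen, and 2 of 49 members passed, against 3.9% of all tested genes (1.97% higher and 1.94% lower in BALB-RAG). Gnb1, a beta subunit, read 9.60, 9.81, 9.45 and 9.08 in BALB/c and 10.01, 10.33, 10.11 and 10.53 on the arrays labelled BALB-RAG, so it was 0.76 ± 0.17 higher there (SE, n = 4 per group, adjusted p = 0.0225, limma). Gna13, an alpha subunit of the G12 class, read 10.33, 9.98, 10.48 and 10.51 in BALB/c and 9.32, 9.81, 9.77 and 9.83 in BALB-RAG, a difference of -0.64 ± 0.14 (adjusted p = 0.0191, limma). Neither gene's groups overlapped, and its other 2 probe sets put Gna13 lower by 0.70 and 0.47. Both calls were lost when only the 8 PBS arrays entered the fit and when 1 of 4 PBS arrays was left out: for Gna13 replicate 1 of either line or BALB/c replicate 3 or 4, and for Gnb1 BALB-RAG replicate 2 or 4 or BALB/c replicate 3 or 4. The adjusted p-values reached 0.163 and 0.273 over all alternatives. A second Gnb1 probe set lay under background. With the replicate block 4 members passed, when 8.37% of all tested genes did. In all, 7 members did not overlap between the lines after PBS, against 9.65% of all tested genes.

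Rgs5, a regulator used as a marker of pericytes, had the largest difference after PBS without passing. It read 6.55, 5.85, 6.23 and 6.14 in BALB/c and 8.33, 8.64, 6.40 and 8.70 on the arrays labelled BALB-RAG. BALB-RAG replicate 3 lay within the BALB/c range and the other 3 well above it, which gave 1.83 ± 0.50 (adjusted p = 0.0561, and 0.0322 with the replicate block, limma). Its other 3 probe sets were 1.31, 1.95 and 1.61 higher. Those with 1.31 and 1.95 lay near background, with 6 and 7 arrays over log2 4. Rgs4, the next gene to Rgs5 on the chromosome, read 4.22 to 4.74 in BALB/c and 4.78 to 5.74 in BALB-RAG without overlap (0.62 ± 0.20, adjusted p = 0.102, limma). Adgrv1, a very large adhesion receptor, was lower by 0.59 ± 0.17 on the log2 scale (adjusted p = 0.0724, and 0.0295 with the replicate block, limma). Marker lists moved with the line as well. Genes of proliferating cells read 4.76 to 5.50 in BALB/c and 6.16 to 6.63 in BALB-RAG (3 of 3 higher), and 2 adipose genes 4.63 to 5.84 and 6.17 to 9.80 (both higher). Smooth muscle and pericyte genes read 7.50 to 7.63 and 7.82 to 8.52 (1 of 7 higher), and cardiac and skeletal muscle genes 6.68 to 8.92 and 7.32 to 9.71 (1 of 7 higher). In the other direction 1 of 3 NK cell, 1 of 5 dendritic cell and 1 of 9 endothelial genes were lower in BALB-RAG. BALB-RAG replicate 3, lowest for Rgs5, was also the lowest of its group for the muscle list at 7.32 and the adipose list at 6.17. The same array was lowest for smooth muscle and pericytes (7.82), endothelium (9.26), macrophages (7.17), T cells, ciliated cells and alveolar epithelium. It was highest of its group for the B cell, dendritic cell, eosinophil and proliferation lists. The part of these cells and tissues in the results was not tested. Of the pathway genes, S1pr1 (-0.92 ± 0.18) and Adcy4 (-0.60 ± 0.16) were lower and Ptgds, a prostaglandin D synthase, was higher (1.05 ± 0.26); leaving out a single array lost the call of Adcy4 for 14 arrays and of Ptgds for 5, with adjusted p-values up to 0.330 and 0.177 over all alternatives.

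**Figure D4:**
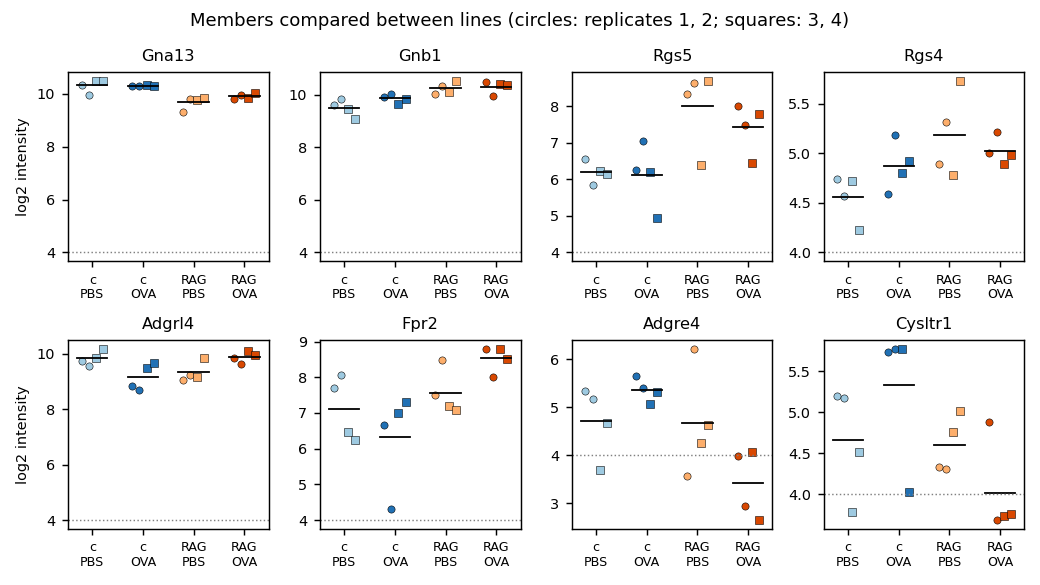
Log2 intensity (y axis, with its own range per gene) on each array for 8 members compared between the lines, with the groups, symbols and lines of the other plots. After PBS the BALB-RAG arrays lie below BALB/c for Gna13 and above it for Gnb1; for Rgs5 1 of 4 BALB-RAG PBS arrays, at 6.40, lies among the BALB/c values; after OVA Fpr2 is higher and Adgre4 lower in BALB-RAG.

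After OVA the lines differed in 16 of 49 members, 32.7% against 23.8% of all tested genes, with 5 higher and 11 lower in BALB-RAG (11.6% and 12.1% of all tested genes); 17 did not overlap, against 27% of all tested genes. This comparison shares its BALB/c OVA arrays with the comparison of OVA and PBS, so members that rose or fell there enter here through the same arrays. Rgs1 was lower by 3.96 ± 0.49 on the log2 scale, P2ry6 by 2.33 ± 0.33, Rgs10 by 1.60 ± 0.46, Ptger4 by 1.53 ± 0.16, P2rx4 by 0.95 ± 0.15 and Rgs19 by 0.92 ± 0.21. Gnao1 was higher by 2.05 ± 0.27, Gnai1 by 0.79 ± 0.16 and Gna11 by 0.41 ± 0.13. Under background were 2 BALB-RAG arrays for Rgs1 and 3 BALB/c arrays for Gnao1, so the sizes of Rgs1 and Gnao1 rest partly on values without a measured level. Gpr34, under log2 4 on all 4 BALB-RAG arrays, was at least 1.95-fold lower, and it was tested only because BALB/c OVA was high. Lymphocyte genes were lower on the same BALB-RAG arrays: 8 of 10 T cell, 6 of 7 B cell and 4 of 6 plasma cell genes, along with 5 of 5 dendritic cell, 2 of 3 NK cell and 3 of 3 proliferation genes. Of 4 club and goblet cell genes, 3 were lower and 1 higher. T cell genes read 3.59 to 5.53 there and 5.39 to 6.62 in BALB/c, and the part of these cells in the results was not tested. With the replicate block 24 members passed, when 33.7% of all tested genes did. The 8 added were Gng2 (adjusted p = 0.000791), Adgra3 (0.00616), Gpr107 (0.00925), Gna13 (0.0323), Gng12 (0.0367), Rgs11 (0.0383), Rgs5 (0.0453) and P2ry14 (0.0483, limma). The tested Gng2 probe set was lower in BALB-RAG by 0.86, but a second one was 0.34 higher.

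Members that differed after OVA without passing in BALB/c were led by Fpr2 and Adgre4. Fpr2 read 8.80, 8.01, 8.80 and 8.51 on the arrays labelled BALB-RAG against 6.67, 4.30, 7.0 and 7.30 in BALB/c, without overlap (2.21 ± 0.57, adjusted p = 0.00934, limma), and it passed under every alternative. Neutrophil genes read 6.58 to 7.30 and 6.15 to 6.60 on the same arrays, with none of 5 past the threshold. Adgre4, an adhesion receptor of macrophages, read 3.98, 2.95, 4.08 and 2.65 in BALB-RAG and 5.66, 5.39, 5.08 and 5.32 in BALB/c (-1.95 ± 0.49, adjusted p = 0.00852, limma); 3 of the BALB-RAG arrays were under background. Macrophage genes were lower on these arrays too, 7.93 to 8.14 against 9.18 to 10.11 (6 of 7 past the threshold), and their part in the result was not tested. Cysltr1 read 4.88, 3.69, 3.73 and 3.76 in BALB-RAG and 5.73, 5.77, 5.78 and 4.03 in BALB/c, with overlap (-1.31 ± 0.41, adjusted p = 0.0288, limma), and 3 of the BALB-RAG arrays were under background. Rgs14 was lower at 5.21 to 5.78 against 5.94 to 6.41 (-0.77 ± 0.19, adjusted p = 0.00721, limma). Gpr89, a Golgi protein that carries a receptor name, was lower by 0.43 ± 0.14 on the log2 scale (adjusted p = 0.0352, limma). Adgrl4 was higher, 9.63 to 10.09 against 8.70 to 9.65, with a slight overlap (0.71 ± 0.22, adjusted p = 0.0313, limma). The calls of Cysltr1 and Gna11 were lost without BALB-RAG OVA replicate 2 (adjusted p = 0.0725 and 0.106, limma), without which 15 members passed. Leaving out a single array lost the call of Cysltr1 for 6 arrays, of Adgrl4, Gna11 and Gpr89 for 5 each and of Rgs10 for 3, with adjusted p-values up to 0.232, 0.329, 0.167, 0.387 and 0.0622 over all alternatives.

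Of the 57 tested pathway genes, 15 were higher and 7 lower on the BALB-RAG arrays after OVA, where 11.6% and 12.1% of all tested genes were. Those with the lowest p were Adcy9 (1.20 ± 0.13), Pde4d (0.80 ± 0.12), Plcb4, a phospholipase C beta (1.09 ± 0.17), Ptgfr, the prostaglandin F receptor (1.60 ± 0.26, with 2 BALB/c arrays under background), and Ednrb, an endothelin receptor (1.61 ± 0.31), among the higher. Among the lower they were C3ar1 (-3.91 ± 0.47, with 2 BALB-RAG arrays under background), Adcy7 (-1.30 ± 0.19), Ptgir (-1.96 ± 0.28), Entpd1, which breaks down extracellular ATP (-1.62 ± 0.26), and Lta4h, which makes leukotriene B4 (-0.63 ± 0.15). Smooth muscle and pericyte genes were higher on the same arrays (5 of 7), as were muscle genes (5 of 7), and their part in these differences was not tested.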

How the data were processed

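RNA from the whole lung was hybridised to Affymetrix arrays, 16 in all. Each deposited value is a linear intensity per probe set, which the authors made with GCRMA, a background correction, quantile normalisation and probe summary, per the submitters' processing notes (version not given in the sources used here). Log2 was taken here, with no further normalisation.

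In parts of the deposited table probe set labels stand beside values of other probe sets. Labels were realigned in 3 stretches (14300 labels), each moved by a fixed number of rows: 64 above, 47 below and 16168 below. In 200, 424 and 370 pairs of probe sets of 1 gene, the mean correlation across arrays was 0.572, 0.433 and 0.484 after realignment. With the label of the stretch as deposited and only its partner realigned, it was 0.0142, -0.0250 and -0.0549. Each shift ranked 1 of 601 tried. Over 10 pairs of probe sets of 1 member, the median correlation was 0.787 realigned and 0.309 with both as deposited. The second stretch had been described as lying 47 rows above; there the mean correlation was 0.00220, so the direction the data gave was used. This check uses the same correlations that revealed the shift. Every gene name here rests on it. Other labels were dropped. Symbols came from the platform annotation.

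A gene kept its probe set of highest mean. Genes over log2 4 on at least 4 arrays were tested with limma 3.58.1 in R 4.3.3 (4 group means, 12 residual degrees of freedom) and Benjamini-Hochberg adjustment over 7276 genes at 0.05. On simulated data 67 of 100 genes changed by 1 and 96 of 100 changed by 2 (log2) were recovered in BALB/c OVA against PBS, with 6 false calls. The simulation had independent normal noise, no shift between replicates and 200 changed genes, where 1128 passed in the data. Its rates may not hold for the data. Named were the largest changes past the threshold (15 each way in BALB/c OVA against PBS, 10 elsewhere) and tested members of the ligand receptor classes. Up to 5 pathway genes each way with the lowest p were named as well. Other genes named for context, Adcy8 among them, were chosen after their values were seen. Members, lists and tests were chosen with earlier results of these data known.

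Deviations from the group means of samples with the same replicate number correlated at 0.304 to 0.456 between OVA and PBS in BALB/c, at 0.0253 to 0.478 in BALB-RAG, and at 0.182 to 0.349 between lines after the same exposure. Only samples with the same number were correlated, so this check cannot tell pairing by number from a shift shared by several numbers. Whether the numbers pair the samples is therefore not known. Values with the number as a block are given, as an alternative fit, where they change a member's call.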

Additional observations from a re-analysis of the deposited data

Results flagged for a closer look

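In 88 groups of 4 arrays (22 genes named in the comparisons), 8 had an array whose gap to its nearest neighbour, as a share of the group's range, was over Dixon's critical value; chance gives about 1 in 20 such groups. In BALB/c after OVA, replicate 4 was the highest for Adgrl2 at 9.22 (others 8.64 to 8.73) and the lowest for Cysltr1 at 4.03 (others 5.73 to 5.78) and Gna11 at 7.14 (others 7.52 to 7.56). In the same group replicate 3 was the highest for Ptger4 at 8.46 (others 8.07 to 8.14) and Gna13 at 10.34 (others 10.29 to 10.30). Among the arrays labelled BALB-RAG, PBS replicate 1 was the lowest for Gna13 at 9.32 (others 9.77 to 9.83), OVA replicate 1 was the highest for Cysltr1 at 4.88 (others 3.69 to 3.76), and OVA replicate 2, the array with T cell and plasma cell transcripts, was the highest for Rgs19 at 7.71 (others 7.49 to 7.52).

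The OVA responses of the lines differed past the threshold of limma's interaction test for 6 members, in log2 units: Rgs1 by 3.30, P2ry6 by 2.08, Ptger4 by 1.51, Gpr34 by 1.21, Adgrl4 by -1.21 and Gnao1 by -1.54. The values for Rgs1, Gpr34 and Gnao1 rest partly on arrays under background.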

How the results depend on the processing

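No call past the threshold that was followed through the alternative runs changed direction. Results not past the threshold were not followed in this way, and some reversed between replicates 1 and 2 alone and replicates 3 and 4 alone. Fpr2 in BALB/c differed by -2.39 and 0.79 in these runs, and P2ry6 on the arrays labelled BALB-RAG by -0.18 and 0.82. Counts of members past the threshold stayed within 1.5 times the main count under other filters, the floor at log2 4, the mean over probe sets, median centring and the trended robust prior. With the replicate block the count was 12 for the difference of responses and 4 for the lines after PBS, and with a term for replicates 1 and 2 against 3 and 4 it was 11 and 4. With replicates 3 and 4 alone the counts were 6 in BALB/c, 2 for the difference of responses, 0 for the lines after PBS and 7 for the lines after OVA. With only the PBS arrays in the fit 0 members differed between the lines. Leaving out each array in turn gave 11 to 15 members in BALB/c, 0 in BALB-RAG, 4 to 10 for the difference of responses, 0 to 4 for the lines after PBS and 12 to 18 for the lines after OVA. The count after PBS fell to 1 without BALB-RAG replicate 1, 2 or 4 or BALB/c replicate 1 or 3 and to 0 without BALB/c replicate 4, and it was 4 without BALB-RAG replicate 3; the cause was not tested. Over single genes and settings, 153 calls were lost and 1666 were not. P2ry6, Ptger4, Rgs1 and Adgra3 kept theirs in BALB/c under each. Genes under a stricter filter have no value there. Signal near background limits Rgs1, Gnao1, Gpr34, Adgre4, Cysltr1, C3ar1 and the 41 untested members.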
